A study of Homo sapiens with 6 samples.

Results

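The genes described here are 10 transcripts of the unfolded protein response and the integrated stress response: ATF4, DDIT3, HSPA5, XBP1, HERPUD1, TRIB3, ASNS, CHAC1, DDIT4 and SESN2. They were chosen by name, not by a threshold on their values, but with earlier results of these data known. All 10 were found among the 23284 gene symbols of the expression tables. Their RNA was measured in GM12873, an Epstein-Barr virus-transformed human B-lymphoblastoid cell line from a single donor. The study compared 3 control samples, washed in PBS and taken straight into Trizol, with 3 samples that were freeze-dried in 0.1 M trehalose, kept dry for 2 weeks at room temperature and only then taken into Trizol. Both groups were untreated otherwise and shared the same medium. Control 1 is paired with lyophilized sample 1, and likewise for 2 and 3, so that the 6 samples form 3 pairs. The labels do not say whether the pairs were separate cultures, so the p-values below measure the spread between these samples, which may be technical. Poly(A)-selected RNA was sequenced with single reads of 75 bases, and values are FPKM (fragments per kilobase, scaled to the mapped reads of the library).

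The unfolded protein response is set off when unfolded proteins accumulate in the endoplasmic reticulum (ER). Its sensors are IRE1 (gene ERN1), which splices the XBP1 mRNA, ATF6, which is cleaved to a transcription factor, and PERK (EIF2AK3), which phosphorylates the translation factor eIF2. Phosphorylation of eIF2, by PERK or by the amino acid sensor GCN2 (EIF2AK4) among other kinases, lowers general translation but favours that of ATF4, and this shared route is called the integrated stress response. B-lineage cells are known for the IRE1 and XBP1 arm, which they need to become antibody-secreting cells.

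Promoter elements through which the pathway is known to act were looked for in the RefSeq promoters of the GRCh37 build, each from 250 bases before to 50 bases after a transcription start. The letters searched, on both strands, were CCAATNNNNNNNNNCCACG (the ER stress response element, ERSE), ATTGGNCCACG (ERSE-II), TGATGNAA (the C/EBP-ATF response element, CARE, bound by ATF4) and TGACGTGG (the unfolded protein response element, UPRE). The ERSE, ERSE-II and UPRE searches share the letters CCACG on one of the strands. All 10 members matched, with 16 promoters, and 5 of them held a match. The exact ERSE letters stood in 0.0769% of all 35116 promoters, ERSE-II in 0.0541%, CARE in 3.62% and UPRE in 0.729%. A match is a description of these windows and not evidence of binding. The stretches that hold the matches are shown because they show in which members' windows the letters of an ER element or of a CARE stood. A member without a match may still hold an element outside its windows or with other letters, which was not searched. They are given 5′ to 3′ on the strand of the gene with the matched letters in capitals, and the CARE of CHAC1 and of HERPUD1 reads on the opposite strand.
HSPA5, ERSE: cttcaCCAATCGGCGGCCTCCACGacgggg
XBP1, ERSE: gctggCCAATCGCGGAGGGCCACGaccgta
HERPUD1, ERSE-II: cggacgccgATTGGGCCACGttgggagagt
HERPUD1, CARE: gacgcggcgggTTGCATCAgcccgtgccca
ASNS, CARE: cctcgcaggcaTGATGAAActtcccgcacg
CHAC1, CARE: ctcccctgccgTTGCATCActcctgccagg
The HSPA5 stretch lies at chr9:128003664-128003693 on the minus strand, with its ERSE from 66 to 48 bases before the start, and the XBP1 stretch at chr22:29196585-29196614 on the minus strand, from 52 to 34 bases before it. The HERPUD1 stretches lie at chr16:56965928-56965957 and chr16:56965867-56965896 on the plus strand. The ASNS stretch lies at chr7:97501770-97501799 on the minus strand, with its CARE from 68 to 61 bases before the start, and the CHAC1 stretch at chr15:41245449-41245478 on the plus strand. HERPUD1 was the member whose window matched both an ER element and a CARE. No UPRE letters were found in the members' windows.

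The depth of each sample, estimated roughly from the FPKM that a single read adds to a single-exon gene, was about 11400000 to 20800000 mapped reads in the controls and 19400000 to 22400000 in the lyophilized samples. Control 1 was the shallowest. At that depth, the members rested on about 136 reads for CHAC1 and 253 for DDIT3 in the sample with the fewest, and on 667 or more for the other 8. These read numbers are estimates. They may be low, since the paper reports more raw reads than the estimated depth for every library, with most of them mapped uniquely. All 10 B-cell markers looked for were above 1 FPKM in all 6 samples, with the lowest at 18.5 FPKM. Of 16 markers of other cell types, 14 stayed below 1 FPKM in all samples, DCN and HBB among them at 0 throughout. The exceptions were the plasma cell genes SDC1, at 20.9 to 25.7 FPKM, and PRDM1, at 3.11 to 3.97 FPKM. In bulk RNA, fewer cells with a transcript and less of it per cell cannot be told apart.

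The 10 members spanned FPKM levels from 274 for DDIT4 to 7.60 for CHAC1 as means over the 6 samples. DDIT4 (274 FPKM), ATF4 (189.1), HSPA5 (132) and XBP1 (103.5) formed the upper range, and 94.3% to 97.9% of the 11134 genes tested lay below each of them. HERPUD1 (58.9 FPKM) and ASNS (52.3 FPKM) followed. TRIB3 (24.3 FPKM), DDIT3 (19.8), SESN2 (13.2) and CHAC1 (7.60) were the lowest. The ranges over samples of neighbours in this order overlapped except between XBP1 and HERPUD1 and between ASNS and TRIB3. These ranges leave out that neighbours were measured in the same samples. Within each of the 6 samples, DDIT4 lay above ATF4, DDIT3 above SESN2 and SESN2 above CHAC1, though their ranges overlapped. The other neighbours with overlapping ranges changed order between samples. Members further apart in the order can be separated by range, as DDIT4 (211.5 FPKM or more) is from XBP1 (108.7 FPKM or less). The levels are per length and without a test.

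**Figure D1:**
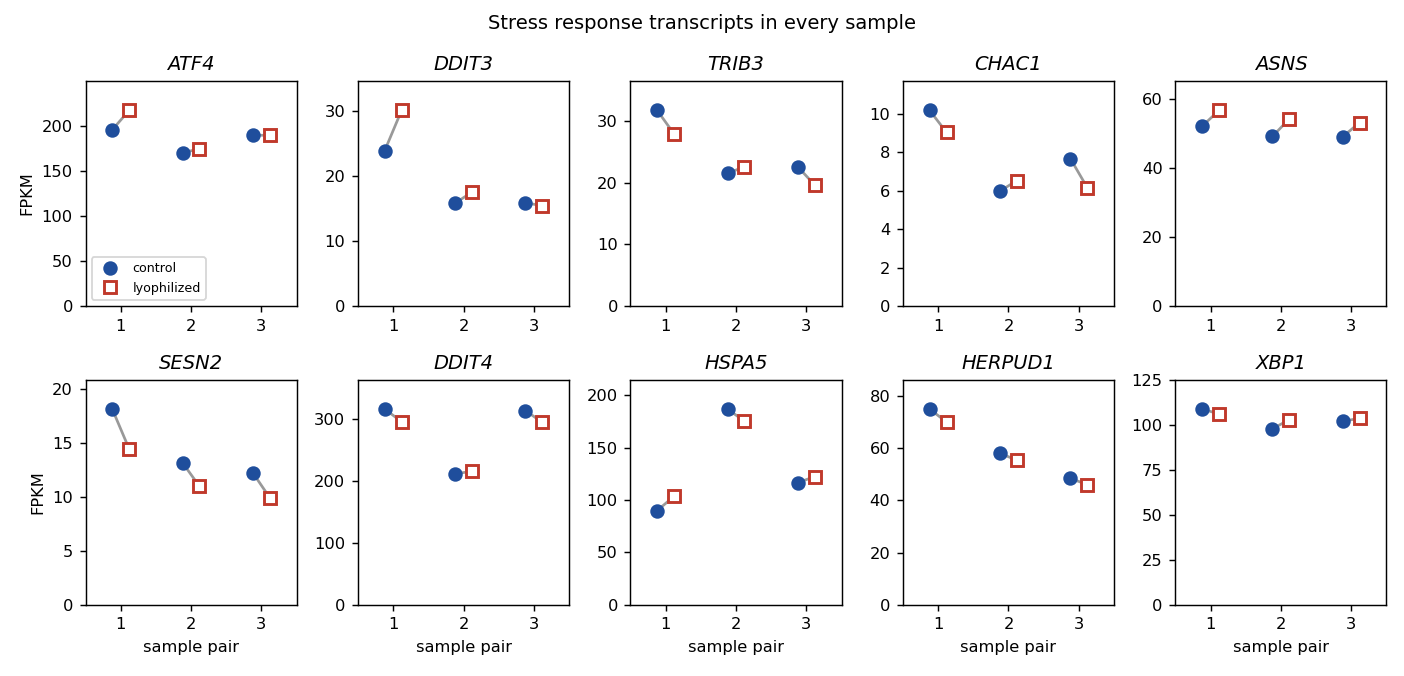
FPKM of the 10 members (vertical axes, linear and from 0) in each sample pair (horizontal axes), with control samples as filled circles and lyophilized samples as open squares, joined within a pair. The 2 samples of a pair mostly lie close together, and HSPA5 is highest in pair 2 while DDIT3, SESN2 and HERPUD1 are highest in pair 1.

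The first comparison asked whether drying and dry storage altered the abundance of these transcripts. None of the 10 members passed the test between lyophilized and control samples (limma on log2(FPKM + 0.1), adjusted p below 0.05), and none had an unadjusted p below 0.05, where 0.575% of all 11134 genes passed, 0.557% as lower and 0.018% as higher in the lyophilized samples. Their median log2 difference, lyophilized minus control, was -0.017, against 0.039 over all genes tested, and their median absolute difference was 0.093, against 0.18. All differences here and below are given as log2(FPKM + 0.1). With the pair as a block in the fit, 30.7% of all genes passed, 14.9% lower and 15.9% higher, and 1 of the 10 members, SESN2, was called, as lower in the lyophilized samples. The summed level of the 16 markers of other cell types, nearly all of it SDC1 and PRDM1, moved with the groups, at 29.4 to 30.5 FPKM in the controls against 25.5 to 27.2 FPKM in the lyophilized samples, whereas the sum of the other 14 markers overlapped, at 0.98 to 1.34 against 1.17 to 1.37 FPKM. The part of these markers in the differences was not tested.

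ATF4, the transcription factor at the centre of the integrated stress response (chr22:39916569-39918691 of hg19, plus strand), measured 195, 169.7 and 189 FPKM in controls 1 to 3 against 217, 174 and 189 FPKM in lyophilized samples 1 to 3. The groups overlapped, and the highest and the lowest of the 6 samples were lyophilized sample 1 and control 2. The means were 185 ± 13.4 FPKM in the controls against 194 ± 21.5 FPKM in the lyophilized samples (SD, n = 3), a log2 difference of 0.063 with an SE of 0.13 (limma, adjusted p = 0.843). DDIT3, which encodes the transcription factor CHOP and is a target of ATF4 linked to cell death (chr12:57910371-57914300, minus strand), measured 23.9, 15.8 and 15.9 FPKM in the controls against 30.1, 17.5 and 15.4 FPKM in the lyophilized samples. Both samples of pair 1 lay above all others, and the lyophilized sample was the higher in 2 of the 3 pairs. The log2 difference was 0.14 ± 0.27 (SE, limma adjusted p = 0.83).

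TRIB3, a pseudokinase that feeds back on ATF4 and CHOP (chr20:361308-378203, plus strand), measured 31.8, 21.5 and 22.6 FPKM in the controls against 27.9, 22.6 and 19.6 FPKM in the lyophilized samples. CHAC1, an enzyme that breaks down glutathione (chr15:41245636-41248717, plus strand), measured 10.2, 5.99 and 7.69 FPKM in the controls against 9.04, 6.54 and 6.17 FPKM in the lyophilized samples. Both had lower values in the lyophilized sample of pairs 1 and 3 and a higher one in pair 2, and the groups overlapped. Their log2 differences were -0.10 and -0.12 (limma, adjusted p = 0.824 and 0.832).

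ASNS, asparagine synthetase (chr7:97481429-97501854, minus strand), was the member whose groups did not overlap. It measured 52.0, 49.1 and 49.0 FPKM in the controls against 56.6, 54.2 and 53.1 FPKM in the lyophilized samples. All lyophilized samples lay above all controls, as groups did not overlap for 22.2% of all genes. The means were 50.05 ± 1.71 and 54.6 ± 1.80 FPKM (SD, n = 3), a log2 difference of 0.13 ± 0.099 (SE), and the test was not passed without the block (limma, adjusted p = 0.575) or with it (0.0874).

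SESN2, a sestrin that senses leucine and restrains the growth kinase complex mTORC1 (chr1:28585963-28609002, plus strand), measured 18.2, 13.2 and 12.2 FPKM in the controls against 14.5, 11.0 and 9.93 FPKM in the lyophilized samples. The groups overlapped because pair 1 was high in both, but the lyophilized sample was the lower in 3 of 3 pairs, by 0.33, 0.26 and 0.30 on the log2 scale. The mean difference was -0.29 ± 0.20 without the block (SE, limma adjusted p = 0.51) and -0.29 ± 0.071 with it (adjusted p = 0.0147). With the block and without pair 1 the adjusted p was 0.0635, without pair 3 it was 0.137, and without pair 2 it was 0.00326. DDIT4, which encodes REDD1, another inhibitor of mTORC1 (chr10:74033677-74035797, plus strand), measured 316, 212 and 313 FPKM in the controls against 295, 215 and 294 FPKM in the lyophilized samples. Pair 2 was lowest in both groups, and the groups overlapped. The log2 difference was -0.055 (limma, adjusted p = 0.922, or 0.361 with the block).

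HSPA5 encodes BiP, the main ER chaperone, which also holds the sensors inactive (chr9:127997127-128003666, minus strand). It measured 89.9, 187 and 117 FPKM in the controls against 104, 175 and 122 FPKM in the lyophilized samples. The spread within each group was wide, with an SD of 50.05 FPKM around 131 in the controls and of 37.1 FPKM around 134 in the lyophilized samples, and pair 2 was the highest in both. The log2 difference between the groups was 0.061 (limma, adjusted p = 0.943, or 0.444 with the block). It was 0.14 with an adjusted p of 0.0334 when the blocked fit was run without pair 2. That fit called more of all genes than the blocked fit on all pairs, as the counts in the closing section show. With the block and a correction for GC content, described below, the HSPA5 difference was -0.045 (limma, adjusted p = 0.545).

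HERPUD1, a membrane protein of ER-associated degradation (chr16:56965748-56977793, plus strand), measured 75.0, 58.1 and 48.5 FPKM in the controls against 70.05, 55.4 and 46.1 FPKM in the lyophilized samples. The lyophilized sample was slightly lower in all 3 pairs, by 0.099, 0.070 and 0.073 on the log2 scale, with adjusted p = 0.878 without the block and 0.24 with it in limma. XBP1, the transcription factor whose mRNA IRE1 splices (chr22:29190548-29196560, minus strand), measured 108.7, 97.8 and 102 FPKM in the controls against 106.0, 103 and 104 FPKM in the lyophilized samples. Its values stayed within 97.8 to 108.7 FPKM in all 6 samples, and its log2 difference was 0.020 (limma, adjusted p = 0.947). Gene-level FPKM does not separate the spliced from the unspliced XBP1 mRNA. Those forms differ by 26 bases, which GENCODE annotates as an intron at chr22:29192116-29192141 on the minus strand of GRCh37. It is shown in capitals because it marks what the values cannot resolve. Since a G stands both at its first position and right after its last, a stretch that begins and ends 1 base later leaves the same spliced mRNA, and the capitals follow the annotation, not the cleavage sites of IRE1.
XBP1, annotated intron: ccGCAGCACTCAGACTACGTGCACCTCTgc

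**Figure D2:**
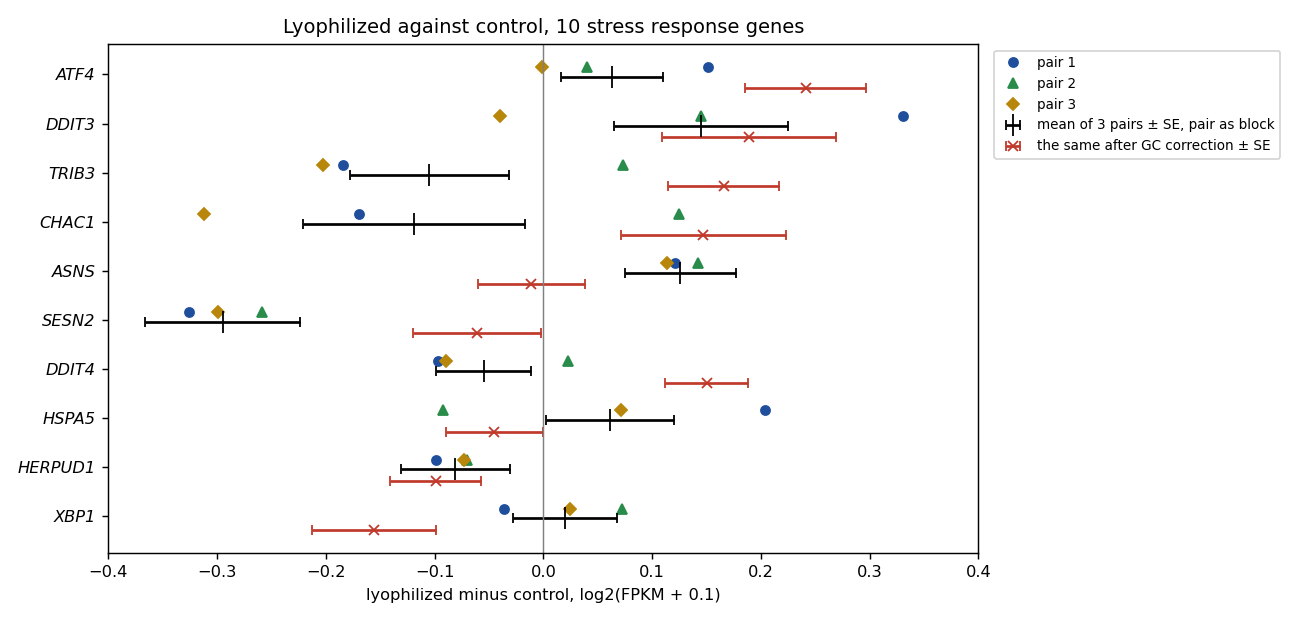
Lyophilized minus control on the log2(FPKM + 0.1) scale (horizontal axis) for each member (rows), as a point per pair, as the mean of 3 pairs with its SE from the fit with the pair as a block, and as the same estimate after a correction for GC content. SESN2 lies at -0.29 before the correction and at -0.061 after it, and ATF4 lies at 0.063 before and 0.24 after.

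Differences between lyophilized and control samples varied with the GC content of the transcript. Among genes of at most 40% GC the median log2 difference was 0.28, among those of 55% to 60% it was -0.16, and above 60% it was -0.25. The members run from 41.5% GC for XBP1 to 61.5% for TRIB3. SESN2, with 59.6% GC, differed by -0.29 where genes of its GC range differed by -0.16 in the median, and after a loess correction for GC content in the fit with the block its difference was -0.061 (limma, adjusted p = 0.529). ASNS, with 42.7% GC, went from 0.13 to -0.011 (adjusted p = 0.908). ATF4 (56.7% GC) and DDIT4 (58.1% GC) lay above the median of their range, and after the correction both were called as higher in the lyophilized samples, by 0.24 ± 0.056 (SE, limma adjusted p = 0.023) and 0.15 ± 0.039 (adjusted p = 0.0315), where 15.7% of the 10866 genes with a transcript GC content were called, 8.97% as higher. With transcript length added to the correction none of the 10 members was called, with ATF4 at 0.17 (limma, adjusted p = 0.0773) and 9.83% of genes called in either direction. The correction turned the sign of the difference for TRIB3, CHAC1, ASNS, DDIT4, HSPA5 and XBP1. Among the members no call between lyophilized and control samples could be shared by all fits, since the fit without the block called none. Whether GC content itself had a part in these differences was not tested.

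**Figure D3:**
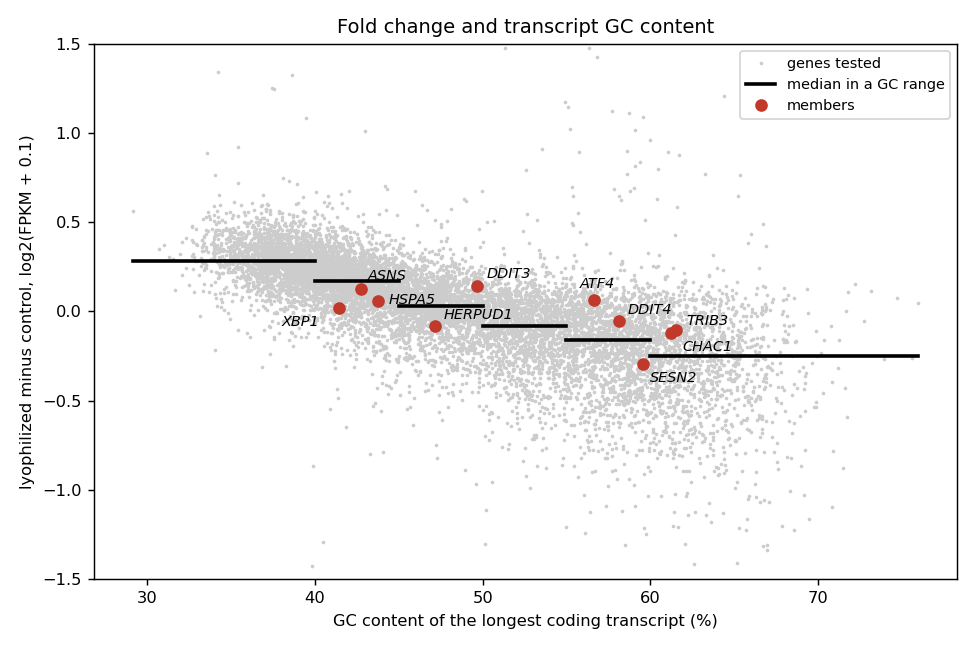
Lyophilized minus control on the log2(FPKM + 0.1) scale (vertical axis, limited to between -1.5 and 1.5, with 12 genes outside) against the GC content of the longest coding transcript in percent (horizontal axis), for 10854 genes in grey and the 10 members in red, with black bars for the median of each GC range. The medians fall from 0.28 at up to 40% GC to -0.25 above 60%, and SESN2 lies below the median of its range while ATF4 and DDIT4 lie above it.

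Other genes of the pathway were taken from 5 lists with 72 genes in all, chosen with earlier results of these data known. All were found, and 71 passed the filter on low values, the exception being NUPR1. Without the block, 1 of the 71 passed the test between lyophilized and control samples, SYVN1, which encodes the ubiquitin ligase HRD1 of ER-associated degradation. It measured 25.6, 25.3 and 29.2 FPKM in the controls against 14.9, 15.5 and 16.1 FPKM in the lyophilized samples. The groups lay far apart, with a log2 difference of -0.78 ± 0.11 (SE, limma adjusted p = 0.0374). Its difference was -0.60 with the GC correction and the block (adjusted p = 0.0012) and -0.51 with length added (adjusted p = 0.000817). Without the block it was no longer called when any 1 sample was left out, with differences between -0.81 and -0.71 and adjusted p between 0.0628 and 0.253.

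With the block, 13 of the 71 pathway genes were higher in the lyophilized samples and 11 lower, which left 47 without a call, at the shares of 15.9% and 14.9% over all genes given above. After the GC correction 7 were higher and 3 lower, where 8.97% and 6.75% of all genes were. Of 17 ER chaperones and folding enzymes, 6 were higher and 1 lower with the block, among them DNAJB9, a cochaperone of BiP, at 0.47 ± 0.081 (SE, limma adjusted p = 0.00394), and HSP90B1, the ER form of the chaperone HSP90, at 0.34 ± 0.077 (adjusted p = 0.0122). Of 10 sensors, eIF2 kinases and phosphatases, 1 was higher and 3 lower, and ATF6B, a relative of ATF6, fell by 0.34 on the log2 scale (SE 0.058, limma adjusted p = 0.00361). ERN1, at 1.52 to 3.48 FPKM over the 6 samples, differed by -0.40 (limma, adjusted p = 0.0491 with the block). EIF2AK3, ATF6 and EIF2AK4 were not called, at 0.21, 0.18 and 0.10. After the GC correction none of these 10 was called, and DNAJB9 and HSP90B1 were at 0.19 and 0.11 (limma, adjusted p = 0.0782 and 0.211).

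The counts of the remaining lists are to be read against the 15.9% of all genes that were higher with the block and the 14.9% that were lower. Of 13 genes of ER-associated degradation and translocation, 3 were higher and 1 lower with the block. SEL1L, the partner of HRD1, was at 0.29 ± 0.090 (SE, limma adjusted p = 0.0356). Of 11 genes of the ATF4 network in transcription and signalling, CEBPG, a dimer partner of ATF4, was higher at 0.27 ± 0.083 (adjusted p = 0.0367) and the growth factor gene VEGFA was lower at -0.27 ± 0.065 (adjusted p = 0.014). Of 20 genes of the ATF4 network in amino acid supply, 2 were higher and 5 lower. The amino acid transporters SLC7A5 and SLC7A1 fell by 0.44 and 0.31 on the log2 scale (limma, adjusted p = 0.00113 and 0.0144 with the block). None of SEL1L, CEBPG, VEGFA, SLC7A5 and SLC7A1 was called after the GC correction, where the last 2 were at -0.18 each.

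The second comparison was between the 3 pairs, each with a control and a lyophilized sample, in a fit with the condition as a term. Of the 10 members, 8 differed between pairs (limma moderated F test, adjusted p below 0.05), where 45.2% of all genes did. The 2 without a call were ASNS (adjusted p = 0.437) and XBP1 (adjusted p = 0.358). The median range between the highest and the lowest pair was 0.54 on the log2 scale for the members and 0.34 for all genes. Pair 1 held the higher sum of the B-cell markers, 3782 to 4036 FPKM against 2678 to 2968 FPKM in pairs 2 and 3. The largest part of these sums was HLA-DRA, at 1547 to 2618 FPKM over the 6 samples. Pair 1 also held the shallowest library. The part of the markers or of the depth in the differences between pairs was not tested.

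HSPA5 had the widest range, 0.91 on the log2 scale or 1.87-fold (limma, adjusted p = 6.7e-05). It averaged 96.7 FPKM in pair 1, 181 FPKM in pair 2 and 119.5 FPKM in pair 3, and the 3 pairs did not overlap. Pair 2 exceeded pair 1 by 1.05 among the controls and by 0.76 among the lyophilized samples. DDIT3 had a range of 0.77 or 1.71-fold (adjusted p = 0.000439), with the reverse order of pairs 1 and 2, at 26.96 FPKM in pair 1, 16.7 FPKM in pair 2 and 15.6 FPKM in pair 3. HERPUD1 fell into 3 pairs that did not overlap, at 72.5, 56.8 and 47.3 FPKM, a 1.53-fold range (adjusted p = 0.000208). The pairs did not overlap for HSPA5, HERPUD1 and ATF4, as for 20.9% of all genes.

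CHAC1 had a range of 1.53-fold (limma, adjusted p = 0.00738), SESN2 of 1.47-fold (adjusted p = 0.00183), DDIT4 of 1.43-fold (adjusted p = 0.000132), TRIB3 of 1.41-fold (adjusted p = 0.00298) and ATF4 of 1.20-fold (adjusted p = 0.0142). Both samples of pair 1 lay above the other 4 for 7 members, ATF4, DDIT3, TRIB3, CHAC1, SESN2, HERPUD1 and XBP1, as they did for 13.7% of all genes. For HSPA5 both lay below the other 4, as for 26.0% of all genes. Both samples of pair 2 lay below the other 4 for ATF4 and DDIT4, as for 10.3% of all genes, and above them for HSPA5, as for 15.8%. Both samples of pair 3 lay below the other 4 for HERPUD1, as for 3.62% of all genes. DDIT4 was set apart by its low pair 2, at 213 FPKM against 305 and 304 FPKM in pairs 1 and 3.

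Between pairs 2 and 1, 7 members were lower in pair 2 and 1, HSPA5, was higher, where 16.3% of all genes were lower and 29.5% higher. The lower members were ATF4, DDIT3, TRIB3, CHAC1, SESN2, DDIT4 and HERPUD1, by 0.26 to 0.68 on the log2 scale. Between pairs 3 and 1, 5 were lower (DDIT3, TRIB3, CHAC1, SESN2 and HERPUD1) and HSPA5 was higher by 0.31, where 11.5% of all genes were lower and 22.9% higher. These comparisons share the samples of pair 1. Between pairs 3 and 2, DDIT4 was higher by 0.51 and HSPA5 and HERPUD1 were lower by 0.60 and 0.26, where 3.66% of all genes were higher and 4.29% lower.

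The median gene was itself higher by 0.11 in pair 2 and by 0.12 in pair 3 than in pair 1. With the medians of the samples set equal, HSPA5 was higher by 0.78 in pair 2 than in pair 1, the 7 members named above were lower by 0.39 to 0.82, and ASNS and XBP1 also differed between pairs (limma, adjusted p = 0.0486 and 0.046). With the GC correction, the difference between pairs 2 and 1 was 0.82 for HSPA5 and between -0.63 and -0.14 for the 7. All 10 members thus had the same sign between pairs 2 and 1 in these 3 scalings. ATF4 was not called between pairs after the GC correction (limma, adjusted p = 0.199), whereas ASNS and XBP1 were (adjusted p = 0.0498 and 0.0411).

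The pathway lists split in the same comparison. Since the lists were chosen with earlier results of these data known, their counts are a description and not an independent test. Of the 17 ER chaperones and folding enzymes, 13 were higher in pair 2 than in pair 1 and 2 were lower, where 29.5% of all genes were higher and 16.3% lower, with a median of 0.55 on the log2 scale. SDF2L1, a cofactor of BiP, measured 28.4, 63.9 and 43.1 FPKM in controls 1 to 3 against 28.4, 75.5 and 45.4 FPKM in lyophilized samples 1 to 3, a difference of 1.29 ± 0.076 (SE, limma adjusted p = 6.9e-06). CALR, the calcium-binding chaperone calreticulin, was higher by 0.95 ± 0.050 (adjusted p = 4.7e-06). Both samples of pair 2 lay above the other 4 for 10 of the 17, as for 15.8% of all genes. The 2 lower genes were DNAJB9 and P4HB, a protein disulfide isomerase, each by 0.44.

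Of the 11 genes of the ATF4 network in transcription and signalling, 9 were lower in pair 2 than in pair 1, none was higher, and the median was -0.46, beside the same shares over all genes. GDF15, a secreted stress cytokine, measured 19.5, 6.76 and 7.36 FPKM in the controls against 17.7, 6.51 and 7.01 FPKM in the lyophilized samples, a difference of -1.47 ± 0.096 between pairs 2 and 1 (SE, limma adjusted p = 1.1e-05). SQSTM1, an autophagy receptor, was lower by 0.66 ± 0.062 (adjusted p = 5.1e-05). Both samples of pair 1 lay above the other 4 for 8 of the 11, as for 13.7% of all genes. With the GC correction the medians of the chaperones and of these genes were 0.52 and -0.54.

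The other lists were mixed, and are to be read against the 29.5% of all genes that were higher in pair 2 than in pair 1 and the 16.3% that were lower. Among the sensors, kinases and phosphatases 2 were higher and 2 lower in pair 2 than in pair 1, and the lower ones were ERN1 by 0.79 and PPP1R15A, the stress-induced eIF2 phosphatase subunit, by 0.72 (limma, adjusted p = 0.00389 and 7.2e-05). EIF2AK3, ATF6 and EIF2AK4 were not called, at -0.21, 0.21 and 0.15. Of the 13 genes of ER-associated degradation and translocation 5 were higher and 3 lower, with DERL3 and DERL2, membrane proteins of that route, higher by 0.78 and 0.43 (adjusted p = 0.000376 and 0.00207). Of the 20 genes of amino acid supply 6 were higher and 5 lower. ALDH1L2, an enzyme of mitochondrial folate metabolism, was higher by 0.48 (adjusted p = 0.00775), and SLC6A9, a glycine transporter, was lower by 0.77 (adjusted p = 0.02).

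**Figure D4:**
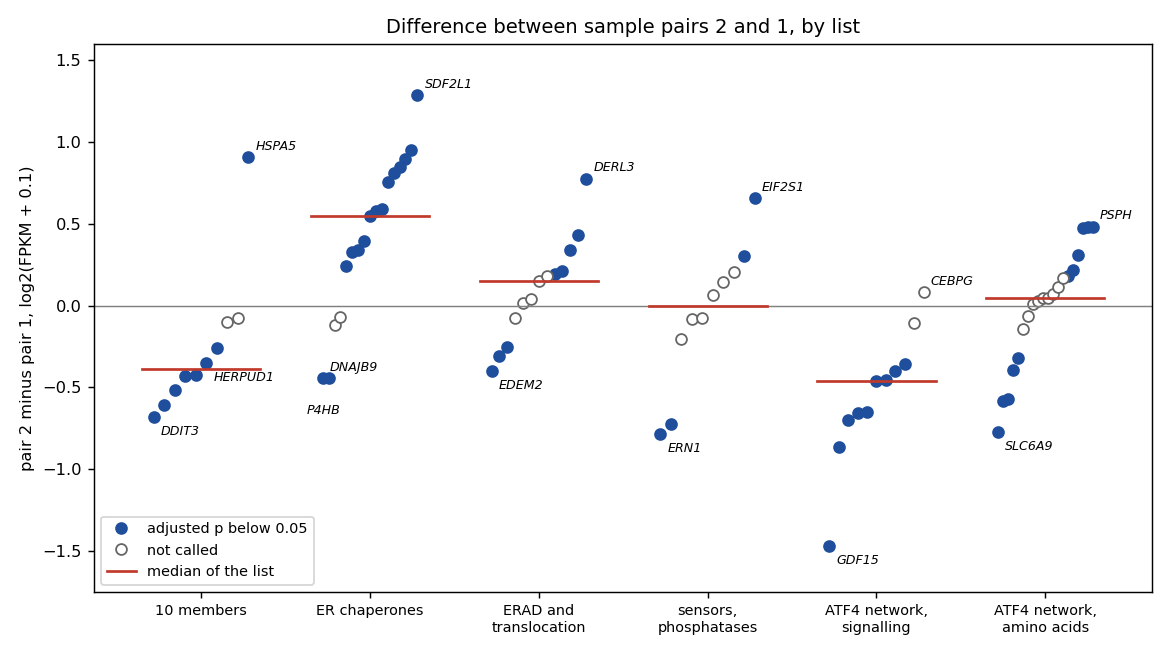
Pair 2 minus pair 1 on the log2(FPKM + 0.1) scale (vertical axis) for each gene of the 10 members and of the 5 pathway lists (columns), in order of size within a column, with filled points for an adjusted p below 0.05 and a red line for the median of the list. The chaperones centre on 0.55 and the signalling genes of the ATF4 network on -0.46, with HSPA5 at 0.91 apart from the other members.

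The promoter matches can be set beside these differences. Across members and lists, 8 genes with the exact ERSE letters were tested, namely HSPA5, XBP1 and the chaperones CALR, CANX, CRELD2, ERO1LB, HSP90B1 and PDIA6. Of these 6 were higher in pair 2 than in pair 1 and none was lower, with a median of 0.68 and a range of -0.12 to 0.95, where 29.5% of all genes were higher and 16.3% lower. Of the 11 other chaperones, 8 were higher as well, so the rise was not limited to genes with the exact ERSE letters. Promoters were found for 16 of the 17 chaperones, so the 11 were not all searched. HYOU1, SDF2L1 and DNAJC10, among the 8, held ERSE-II or UPRE letters. All 3 genes with UPRE letters and 2 of the 3 with ERSE-II letters were also higher, with HYOU1 counted in both. Of 11 genes with a CARE none was higher and 3 (ATF3, CHAC1 and HERPUD1) were lower, beside the same shares over all genes, with a median of -0.074. XBP1 shares the ERSE letters with HSPA5, yet differed by -0.099 between these pairs where HSPA5 differed by 0.91. HERPUD1, with an ERSE-II and a CARE, differed by -0.35.

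For each member, the gene whose centred log2 profile over the 6 samples lay nearest was sought among the 11133 other genes tested, by the root mean square difference. For HSPA5 it was TUBB3, a tubulin gene, with a difference of 0.046, at 3.13, 6.04 and 4.04 FPKM in the controls against 3.35, 5.95 and 4.06 FPKM in the lyophilized samples. For SESN2 it was the glycolytic enzyme gene ENO2 (0.032), for DDIT4 the sterol pathway enzyme gene FDPS (0.042), for TRIB3 SYNGR2 (0.029), for CHAC1 LMBR1L (0.040) and for HERPUD1 RASSF4 (0.025). DDIT3 lay nearest to NEDD4L (0.063), ATF4 to CCBL2 (0.012), ASNS to MED8 (0.015) and XBP1 to TOX4 (0.016). Among the members, the closest were ASNS and XBP1 at 0.060, both nearly flat. The member nearest to ATF4 was XBP1 at 0.086, and TRIB3 and CHAC1 were each the member nearest to the other, at 0.097. CHAC1 ranked 103 in nearness to TRIB3, and TRIB3 ranked 77 to CHAC1. The member nearest to HSPA5 was ASNS at 0.41, which ranked 6271 of the 11133 genes.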

How the data were processed

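RNA of 3 control and 3 lyophilized samples was sequenced by the authors, who, per the labels and methods, aligned the reads with TopHat 2.0.7 (hg19) and deposited 1 Cufflinks table of FPKM values per sample. The annotation and the version of Cufflinks are not given in the sources used here. FPKM holds no counts. A read's worth in single-exon genes gave rough depths (38.0% to 57.0% of low values were whole reads within 0.15). Here 24934 records were reduced to 23284 symbols, the record with the highest mean kept. Symbols of small RNAs and genes with a mean FPKM of at most 1 in both groups were left out. The remaining 11134 genes entered limma (version 3.58.1, R 4.3.3), which fitted log2(FPKM + 0.1) by condition, without the pair, as in the study, and used a variance trend and Benjamini-Hochberg adjustment. Labels pair the samples, and deviations from the group mean correlated at 0.716, 0.603 and 0.476 within pairs, so fits with the pair as a block are given where calls changed. The GC correction was a loess of span 0.3 and degree 2 in each sample. Pathway genes were named by a rule, which took the 2 per list with the largest called difference between groups (block, same sign in all pairs), the 2 with the largest called range between pairs, and ERN1, EIF2AK3, ATF6 and EIF2AK4. Genes named otherwise were chosen after their values were seen. The members and lists were chosen with earlier results of these data known. The fits were tested on simulated data.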

Additional observations from a re-analysis of the deposited data

How the results depend on the processing

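Between lyophilized and control samples, 64 genes, 0 members and 1 pathway gene were called without the block. The counts were 3423, 1 and 24 with the block, 1708, 2 and 10 with the block and GC correction, 1068, 0 and 5 with length added, 3674, 1 and 23 with the block and equal medians, and 3510, 1 and 26 with the block and quantile normalization. They were 0, 0 and 0 with the GC correction but no block, with no filter on low values, and without any 1 sample (range 0 to 0). With the block, leaving out pair 1, 2 or 3 gave 2194, 5359 or 1264 genes, 0, 4 or 0 members and 10, 34 or 8 pathway genes. The 4 members without pair 2 were SESN2, TRIB3 at -0.19 (limma, adjusted p = 0.0183), CHAC1 at -0.24 (0.0346) and HSPA5 at 0.14 (0.0334).

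The members' median difference, -0.017, was 0.068 with the GC correction, with or without the block, and ranged from -0.138 to 0.072 without 1 sample (lowest without lyophilized sample 1, highest without control 1). Signs turned as follows. With the GC correction, with or without the block, TRIB3 was at 0.166, CHAC1 at 0.147, ASNS at -0.011, DDIT4 at 0.15, HSPA5 at -0.045 and XBP1 at -0.156. With length added, TRIB3 was at 0.12, ASNS at -0.02, DDIT4 at 0.047, HSPA5 at -0.027, XBP1 at -0.158 and VEGFA at 0.156. With quantile normalization, with or without the block, ATF4 was at -0.024, HSPA5 at -0.001 and XBP1 at -0.012. Without 1 sample, ATF4 ranged from -0.022 to 0.135, DDIT3 from -0.144 to 0.342, TRIB3 from -0.24 to 0.07, CHAC1 from -0.304 to 0.074, DDIT4 from -0.245 to 0.097, HSPA5 from -0.177 to 0.35, HERPUD1 from -0.238 to 0.086 and XBP1 from -0.015 to 0.061. With the block, HSPA5 was at -0.01 without pair 1 and XBP1 at -0.006 without pair 2. The cause was not tested.

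Between pairs, 5036 genes, 8 members and 45 pathway genes were called. Without the condition in the fit 858, 4 and 17 were, the members being HSPA5, DDIT3, DDIT4 and HERPUD1, and with no filter on low values 2533 genes and 5 members. Without 1 sample, 7 to 8 members were called, ATF4 being lost without lyophilized sample 1. ATF4 was also not called with no variance trend (limma, adjusted p = 0.123). A pseudocount of 1 changed no member's call or sign between pairs. A filter at a mean of 5 FPKM was not tried between pairs. It was tried between lyophilized and control samples without the block, where no member was called, as were pseudocounts of 1 and 0.01. There they called no member and turned no member's sign. Other annotations or aligners were not tried, and the depth limits CHAC1 and DDIT3 most.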
